A study of Homo sapiens with 8 samples.

Results

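The genes described are 10 members of cytokine signalling through the Janus kinases (JAK), in osteosarcoma cells transfected with a miR-101-3p mimic. They are the ligands IL6 and LIF, the receptor chain IL6ST, the kinases JAK1, JAK2 and TYK2, the transcription factors STAT3 and STAT5B, and the inhibitors SOCS3 and SH2B3. They were picked by symbol from the 15982 genes of the count table, all 10 were found, and all 10 passed the filter on low counts. The choice was made with the difference between the groups known, since IL6 and JAK2 were known to be higher and SH2B3 lower with the mimic. Their differences between the groups are therefore given as a description, and nothing is read from whether a fit called them.

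The cells were the human osteosarcoma line 143BTK-, which is deficient in thymidine kinase, and no other line was used. The first group received the mirVana mimic hsa-miR-101-3p and the second the mirVana mimic Negative Control #1, with 4 libraries per group (n = 4 throughout). In both groups 80 pmol of mimic was delivered with Lipofectamine RNAiMAX at the start and again at 48 h, and total RNA was taken at 120 h. The medium of both groups held no glucose and was supplied with galactose (10 mM), dialysed serum (5%), uridine and GlutaMAX. Whether this medium acts alike in the groups was not tested. The labels speak of 4 independent transfection experiments.

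Total counts ran from 17603054 to 20160267 per library. Replicates 1 and 2 lay close together in each group, although they differed beyond counting noise. A chi-square statistic that averages 1 per gene under counting noise alone was 4.18 (miR-101) and 5.21 (control) for this pair, against 16.1 to 80.0 for the other pairs. Values for replicates 1 and 2 and for replicates 3 and 4 are therefore given beside the results. The RNA component RN7SL1 took 5.23% of counts in miR-101 replicate 4 and 5.35% in control replicate 3, against 4.00% to 4.46% in the other libraries. Of 10 osteoblast and mesenchymal markers 5 were measured, with VIM at 581 CPM and SPARC at 942 CPM with miR-101, against 668 CPM (VIM) and 564 CPM (SPARC) in the control. RUNX2 (25.4 CPM with miR-101 and 13.4 in the control) was called higher by edgeR. SPP1 stood at 122 CPM with miR-101 and 28.7 in the control, and COL1A1 at 13.5 CPM with miR-101 and 6.29 in the control. VIM, SPARC, SPP1 and COL1A1 were tested and not called. ALPL, SP7, BGLAP, IBSP and COL1A2 were not analysed here. Of 8 leukocyte markers CD14 and LYZ were measured, and their summed level was 1.88 to 2.15 CPM with miR-101 and 1.77 to 4.44 CPM in the control. The other leukocyte markers were not analysed here. Of 5 epithelial markers 3 were measured, with a summed level of 360 to 625 CPM with miR-101 and 289 to 375 CPM in the control, and of these KRT8 (117 CPM with miR-101 and 61.4 in the control) was called higher. Of 5 endothelial markers PECAM1 and KDR were measured, with a summed level of 2.98 to 6.33 CPM with miR-101 and 3.11 to 10.4 CPM in the control. The part of these marker differences in the results was not tested. CPM are read counts per megaread of library size, after TMM scaling between libraries.

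Interleukin 6 binds its private receptor chain and then recruits IL6ST, the chain shared with its relatives that carries the signal into the cell. IL6ST holds JAK1, JAK2 and TYK2, which phosphorylate one another and the receptor, and the docked STAT3 is phosphorylated, enters the nucleus and switches on genes that include its own inhibitor SOCS3. SH2B3, also called LNK, is an adaptor that binds phosphorylated JAK2 and dampens its signalling, and STAT5B is the STAT best known downstream of JAK2 at hormone and growth factor receptors. In bone, IL6 family cytokines act on osteoblasts and their precursors, and osteosarcoma lines are a known source of IL6. In whole cultures, more of a transcript per cell and more cells that express it cannot be told apart.

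The mimic carries the mature sequence of miR-101-3p, shown first because its seed defines the matches searched for in the 10 transcripts. The RefSeq sequence is given 5′ to 3′ with the seed, bases 2 to 8, in capitals. The JAK2 and SH2B3 sites follow as windows of the 3′ untranslated region (GENCODE 29, GRCh38), with the letters that pair with the seed, plus the A opposite base 1, in capitals.
hsa-miR-101-3p: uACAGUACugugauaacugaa
JAK2 site, chr9:5127400-5127407, + strand: tgtagttccatGTACTGTAaatatttttca
SH2B3 site, chr12:111451532-111451539, + strand: tattgttttatGTACTGTAcaagtaactta

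Among the 10 genes JAK2 and SH2B3 each held a single match, an 8mer, and the other 8 held none of the 8mer, 7mer-m8 and 7mer-A1 classes in their longest 3′ untranslated region. An 8mer was present in 573 of 12450 tested genes with such a region (4.60%), and 75.9% had no match. The JAK2 match began at base 609 of a region of 1392 bases, and the SH2B3 match at base 3230 of 3321, close to the end of the transcript. A match is a description of the sequence only. The transcripts with the same 8 letters stood on opposite sides, JAK2 higher and SH2B3 lower with the mimic. Of all 573 genes with an 8mer, 125 were called lower and 13 higher, where 3.32% of all tested genes were called lower and 3.30% higher. JAK2 was among 7 of them with a log2 fold change at or above its own, and SH2B3 among 2 at or below its own. As JAK2 and SH2B3 were chosen on this difference, nothing is read from their places. The hairpins that encode miR-101 lie near kinases of this pathway in the genome. MIR101-2 (chr9:4850297-4850375) lies 134015 bases before JAK2, and MIR101-1 (chr1:65058434-65058508) lies 91930 bases upstream of JAK1 as GENCODE 29 places that gene, although one of the JAK1 starts in RefSeq lies beyond the hairpin.

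With the mimic, the ligand IL6, the receptor chain IL6ST, the kinase JAK2, the factor STAT3 and its feedback inhibitor SOCS3 were higher, and the adaptor SH2B3 was lower. For LIF, JAK1, TYK2 and STAT5B the libraries of the groups overlapped. The edgeR quasi-likelihood fit called 6 of the 10 genes, 5 higher and 1 lower, where 6.62% of all 15905 tested genes were called (3.30% higher and 3.32% lower). The groups did not overlap for the same 6 genes, where 15.1% of tested genes had no overlap (7.76% higher and 7.34% lower). The median log2 fold change of the 10 genes was 0.48, beside -0.0051 over all tested genes. As the genes were chosen on this difference, nothing is read from either count or from this median.

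**Figure D1:**
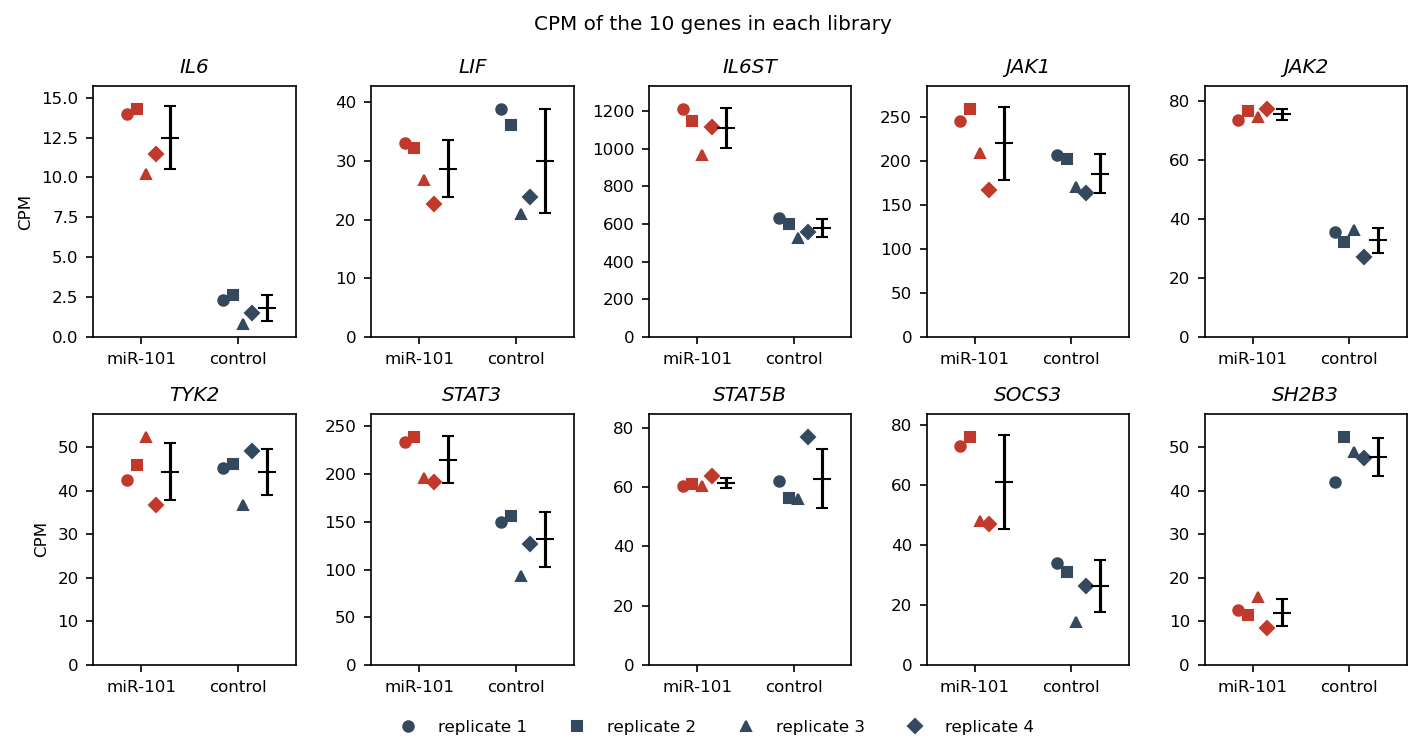
CPM of the 10 genes in the 4 miR-101 and the 4 negative control libraries, with 1 symbol per replicate number and the mean ± SD beside each group. For IL6, IL6ST, JAK2, STAT3 and SOCS3 every miR-101 library stands above every control library, for SH2B3 every one stands below, and the groups overlap for LIF, JAK1, TYK2 and STAT5B.

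IL6, the ligand, stood at 14.0, 14.3, 10.2 and 11.5 CPM in miR-101 replicates 1 to 4, against 2.31, 2.61, 0.807 and 1.53 CPM in control replicates 1 to 4. These are 260, 286, 208 and 213 reads with miR-101 and 42, 50, 13 and 32 reads in the control, so the control level rests on few reads, fewest in replicate 3. The lowest miR-101 library was well above the highest control library. The log2 fold change was 2.77 ± 0.286 (SE), a 6.82-fold difference, and 8 of the 15905 tested genes had a higher one. Replicates 1 and 2 gave 2.51 and replicates 3 and 4 gave 3.18, and the value was 2.54 without control replicate 3. The gene lies at chr7:22725884-22732002 (GRCh38, + strand).

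LIF, a related ligand that signals through LIFR and IL6ST, did not differ in the way IL6 did. It stood at 33.1, 32.2, 26.8 and 22.7 CPM in the miR-101 libraries, against 38.9, 36.2, 20.9 and 23.9 CPM in the control libraries. The groups overlapped, and the value followed the replicate number more than the mimic, with replicates 1 and 2 the higher ones in both groups. The log2 fold change was -0.06 ± 0.207, with the sign turning between replicates 1 and 2 (-0.21) and replicates 3 and 4 (0.14). Scaled to transcript length, IL6 stood at 1.14 ± 0.14 times the level of LIF with miR-101 and at 0.152 ± 0.037 times that level in the control (SD, n = 4 each). This ratio restates the difference in IL6 by which the genes were chosen and is given as a description.

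IL6ST, the signalling chain of the whole IL6 family, was the most abundant of the 10 transcripts. It stood at 1212, 1147, 965 and 1117 CPM with miR-101, against 632, 599, 527 and 559 CPM in the control. The spread within each group was small beside the difference, and the log2 fold change was 0.94 ± 0.108 (1.92-fold). Replicates 1 and 2 gave 0.93 and replicates 3 and 4 gave 0.94, the closest match of the genes that were higher.

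JAK2, the kinase that SH2B3 binds, stood at 73.5, 76.7, 74.7 and 77.4 CPM with miR-101, against 35.8, 32.1, 36.4 and 27.1 CPM in the control. The miR-101 libraries lay within a coefficient of variation of 2.37%, the smallest of the 10 genes, against 13.0% in the control. The log2 fold change was 1.20 ± 0.112 (2.30-fold). JAK1, the kinase held to be the main partner of IL6ST, stood at 245, 259, 208 and 167 CPM with miR-101, against 206, 202, 170 and 164 CPM in the control. Each miR-101 library was above the control library of its own number, but the groups overlapped and the log2 fold change was 0.25 ± 0.147. TYK2, the kinase known from interferon and interleukin receptors, stood at 42.4, 45.9, 52.4 and 36.7 CPM with miR-101, against 45.2, 46.1, 36.7 and 49.2 CPM in the control, with a log2 fold change of 0.00 ± 0.134. The shares of the kinases restate the difference in JAK2 by which the genes were chosen and are given as a description. Per length, JAK2 gave 21.3 ± 3.30% of the summed level of JAK1, JAK2 and TYK2 with miR-101 and 11.7 ± 1.64% in the control (SD, n = 4 each). JAK1 gave 63.6 ± 4.25% of that sum with miR-101 and 69.0 ± 1.94% in the control. With the median transcript length the JAK2 share was 10.2 ± 1.85% with miR-101 and 5.30 ± 0.792% in the control, so the size of the share depends on the length used.

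STAT3, the main STAT downstream of IL6ST, stood at 233, 239, 196 and 192 CPM with miR-101, against 150, 156, 93.3 and 126 CPM in the control. Its log2 fold change was 0.71 ± 0.160 (1.64-fold), and 0.57 without control replicate 3, the lowest library. STAT5B stood at 60.4, 61.2, 60.5 and 63.8 CPM with miR-101, against 62.1, 56.2, 56.0 and 77.1 CPM in the control. The miR-101 values lay inside the control range, and the log2 fold change was -0.03 ± 0.117.

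SOCS3, an inhibitor that binds IL6ST and JAKs and is itself a STAT3 target, stood at 72.7, 76.0, 47.8 and 47.0 CPM with miR-101, against 33.9, 30.8, 14.4 and 26.2 CPM in the control. Replicates 1 and 2 were the higher ones in each group, and the log2 fold change was the same in them (1.19) as in replicates 3 and 4 (1.22) to within its error (1.21 ± 0.255 over all). SH2B3, the adaptor that restrains JAK2, stood at 12.6, 11.4, 15.7 and 8.40 CPM with miR-101, against 42.0, 52.5, 49.0 and 47.6 CPM in the control. The highest miR-101 library was far below the lowest control library. The log2 fold change was -1.99 ± 0.174, a 3.98-fold lower level, and 4 of the 15905 tested genes had a lower one. The first pair of replicates gave -1.99 and the other pair -2.00. Scaled to length, the level of JAK2 was 6.79 ± 1.94 times that of SH2B3 with miR-101, with libraries from 4.87 to 9.43. In the control it was 0.709 ± 0.131 times that of SH2B3, with libraries from 0.582 to 0.870 (SD, n = 4 each). This ratio restates the differences in JAK2 and SH2B3 by which the genes were chosen and is given as a description. Its size depends on the transcript length used.

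**Figure D2:**
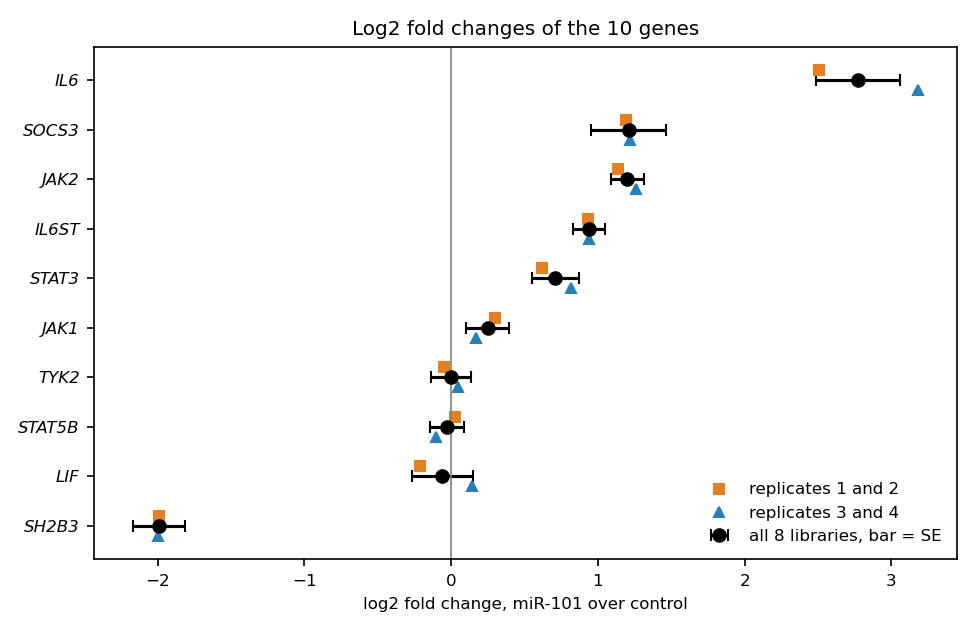
Log2 fold change of miR-101 over negative control for the 10 genes, from all 8 libraries with its SE (black), from replicates 1 and 2 (orange squares) and from replicates 3 and 4 (blue triangles). IL6 is highest at 2.77, SH2B3 is lowest at -1.99, and LIF, TYK2 and STAT5B change sign between the pairs of replicates.

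SH2B3 overlaps ATXN2 and JAK1 overlaps RAVER2 on the other strand, and the use of strand in counting is not given in the sources used here, so reads of those genes could be mixed. STAT3 and SOCS3 were no longer called without miR-101 replicate 1 (log2 fold changes 0.67 and 1.11) or without miR-101 replicate 2 (0.66 and 1.08), where 4 of the 10 genes were called and 3.06% and 3.07% of all genes. With replicates 1 and 2 summed to 1 sample per group IL6, IL6ST, JAK2 and SH2B3 were called (1.09% of all genes). Replicates 3 and 4 alone gave no call among the 10 (0.0379% of all genes), with all 6 differences in the same direction. Replicates 1 and 2 alone called these 6 and JAK1 (32.4% of all genes). The genes were chosen on this difference, so nothing is read from which of them kept the call.

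The genes were chosen on the difference between the groups, and the level in each group is part of that difference. The low places of IL6 in the control and of SH2B3 with miR-101 are therefore not independent of the choice. The order is given as a description. Levels are compared as CPM per kilobase of the longest annotated transcript. In control cells IL6ST came first at 64.0 ± 5.06, then JAK1 at 36.7 ± 4.31 and STAT3 at 26.1 ± 5.67, each with no overlap with the next over 4 libraries (SD, n = 4). STAT5B (12.3 ± 1.94), TYK2 (10.2 ± 1.23), SOCS3 (9.63 ± 3.13), SH2B3 (8.84 ± 0.807), LIF (7.55 ± 2.24) and JAK2 (6.21 ± 0.810) followed, and each of these neighbours overlapped. IL6 was last at 1.19 ± 0.531, below every library of JAK2. With miR-101 the order from the top was IL6ST (123 ± 11.6), JAK1 (43.5 ± 8.17), STAT3 (42.7 ± 4.87), SOCS3 (22.3 ± 5.71) and JAK2 (14.3 ± 0.340). JAK1 and STAT3 overlapped there. SH2B3 was last at 2.22 ± 0.556, below every library of LIF (7.23 ± 1.23), while IL6 stood at 8.18 ± 1.29.

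**Figure D3:**
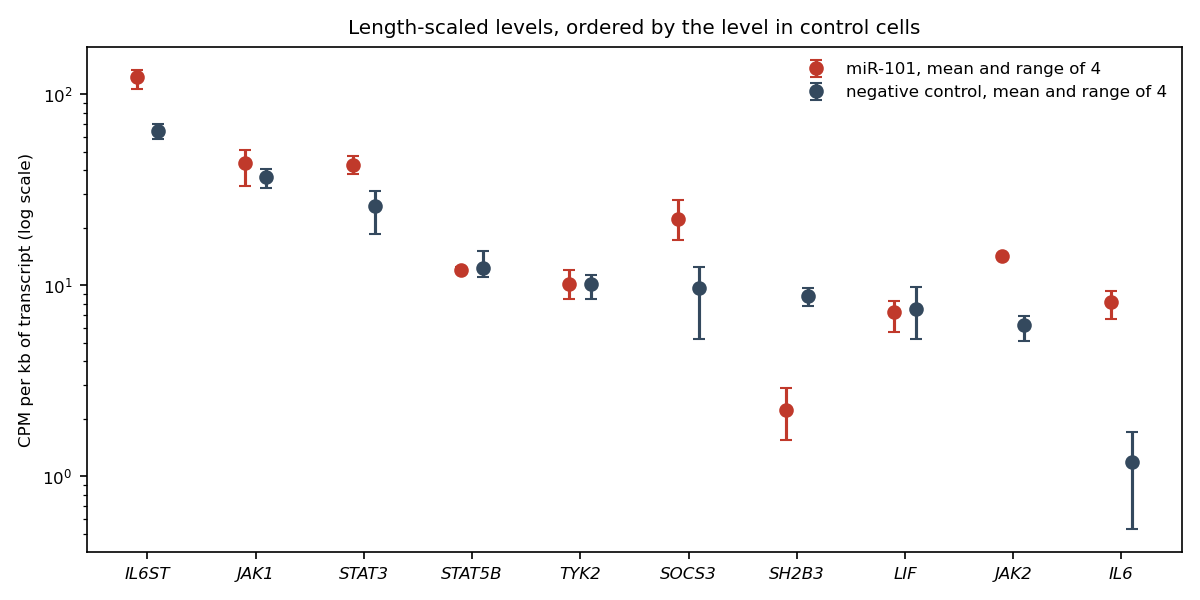
CPM per kilobase of transcript on a log axis, ordered by the level in negative control cells, as the mean and range of 4 libraries per group. IL6ST is highest in both groups, IL6 is lowest in the control (1.19) and SH2B3 is lowest with miR-101 (2.22).

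Within the control group the 10 genes tended to share their lowest library. Control replicate 3 was lowest for 7 of the 10 (IL6, LIF, IL6ST, TYK2, STAT3, STAT5B and SOCS3), where it was lowest for 30.6% of all tested genes. Among the miR-101 libraries replicate 4 was lowest for 6 of the 10, against 34.3% of all tested genes. These are the libraries with the largest share of RN7SL1, and the part of that in the levels was not tested. The genes least steady among control libraries were IL6 (coefficient of variation 44.7%), SOCS3 (32.5%) and LIF (29.7%), and the steadiest were IL6ST (7.91%) and SH2B3 (9.13%).

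The other genes of the pathway were read from 10 lists with 133 genes outside the set, of which 98 were measured and tested and 35 were not analysed here. With the mimic 13 rose and 4 fell by edgeR at an adjusted p under 0.05, which is 13.3% and 4.08% of the 98, beside 3.30% and 3.32% of all tested genes. The median log2 fold change of the 98 was 0.06. The lists were chosen with earlier results of these data known, so nothing is read from these shares against those of all genes. The adjusted p in the next paragraphs is from edgeR's quasi-likelihood test with Benjamini-Hochberg adjustment over all genes, and levels are mean ± SD in CPM with n = 4 per group. A block for the replicate number, with 10.5% of all genes called, gave 20 higher (5.55% of all genes) and 9 lower (4.99%), and all 17 were among them.

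**Figure D4:**
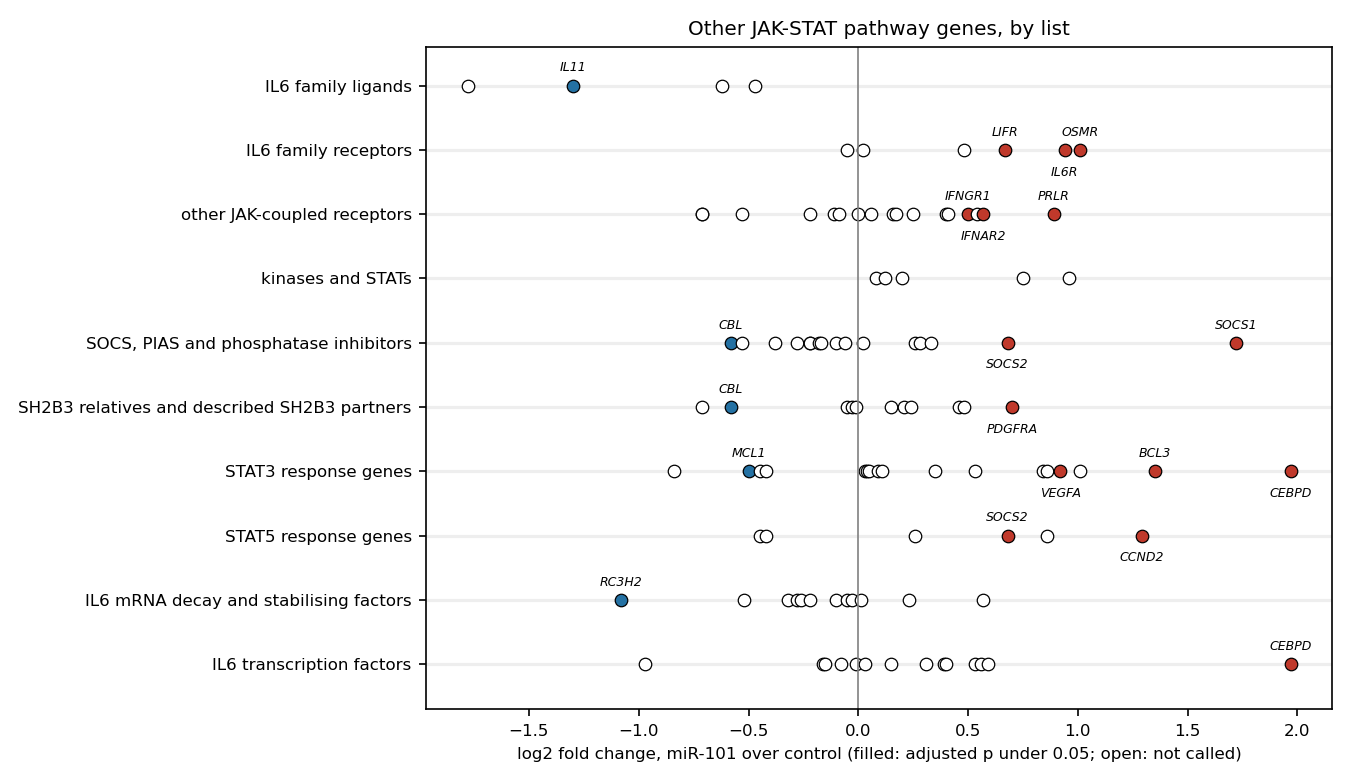
Log2 fold change of miR-101 over negative control for 98 pathway genes outside the set, by list, with called genes filled and named. A gene in more than 1 list is drawn in each, and CEBPD (1.97) and SOCS1 (1.72) lie farthest to the right, while IL11 (-1.30) and RC3H2 (-1.08) are the lowest called genes.

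Receptor chains of the IL6 family other than IL6ST were in part called higher. Of 6 tested, IL6R, LIFR and OSMR rose, none fell, and the median log2 fold change was 0.58. IL6R, the private chain for IL6, stood at 66.1, 66.8, 49.7 and 44.0 CPM with miR-101, against 32.0, 31.9, 22.7 and 31.8 CPM in the control (log2 fold change 0.94 ± 0.166, edgeR adjusted p = 0.00849). OSMR, a chain for oncostatin M, stood at 165.7 ± 22.1 with miR-101 and 82.3 ± 22.4 in the control (1.01 ± 0.186, edgeR adjusted p = 0.0103). LIFR stood at 314 ± 40.2 with miR-101 and 197 ± 38.0 in the control (0.67 ± 0.151, edgeR adjusted p = 0.0250). Every miR-101 library was above every control library for these 3 genes. OSMR is among 7 of the 98 pathway genes with an 8mer (7.14%, beside 4.6% of all tested genes with a 3′ untranslated region). Of these, OSMR and SOCS2 rose, MCL1 and RC3H2 fell, and the others were not called by edgeR without the block.

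The other ligands of the family differed from IL6 in direction. All 4 tested had a negative log2 fold change and 1 fell. IL11, which signals through IL11RA and IL6ST, stood at 4.67, 6.05, 9.06 and 8.07 CPM with miR-101, against 17.7, 20.4, 14.6 and 15.8 CPM in the control (log2 fold change -1.30 ± 0.206, edgeR adjusted p = 0.00517). Its log2 fold change was -1.83 in the first pair of replicates and -0.83 in the other pair.

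Of 17 other tested receptors that use JAKs, IFNAR2, IFNGR1 and PRLR rose and none fell (median 0.16). The interferon chains IFNAR2 and IFNGR1 rose by 0.57 ± 0.119 and 0.50 ± 0.121 on the log2 scale (edgeR adjusted p = 0.0175 and 0.0351). The prolactin receptor PRLR, which signals through JAK2, stood at 8.20 ± 2.28 with miR-101 and 4.43 ± 0.867 in the control (0.89 ± 0.232, edgeR adjusted p = 0.0443, and 0.0565 in limma-voom). None of the 5 other STATs tested was called by edgeR, and all had positive values. At an unadjusted p under 0.05 there was 1 of these 5, limma-voom called 0 and DESeq2 called 1. STAT6 had a log2 fold change of 0.08 ± 0.114. STAT5A, the sister gene of STAT5B, stood at 2.23 ± 0.482 with miR-101 and 1.14 ± 0.417 in the control (0.96 ± 0.280, edgeR adjusted p = 0.0690, and 0.0382 with the block). STAT4 had a log2 fold change of 0.75 ± 0.381 at about 1 CPM in the control (0.990 ± 0.441). JAK3 was not analysed here.

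Among 16 tested inhibitors SOCS1 and SOCS2 rose and CBL fell (median -0.14). SOCS1, which blocks JAK kinase activity, stood at 1.34 ± 0.226 with miR-101 and 0.398 ± 0.239 in the control (1.72 ± 0.365, edgeR adjusted p = 0.0192), a low level at which few reads decide the value. SOCS2, a feedback inhibitor of STAT5 signalling, stood at 17.3 ± 2.39 with miR-101 and 10.9 ± 1.31 in the control (0.68 ± 0.143, edgeR adjusted p = 0.0192), and it too holds an 8mer. CBL, a ubiquitin ligase that removes activated receptors and is a described partner of SH2B3, stood at 18.4 ± 2.90 with miR-101 and 27.5 ± 3.67 in the control (-0.58 ± 0.146, edgeR adjusted p = 0.0397). CISH (0.26 ± 0.555), PIAS3 (-0.17 ± 0.177) and the phosphatase PTPN11 (0.02 ± 0.149) did not pass the test.

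The relatives of SH2B3 did not pass the test. SH2B1, which acts on JAK2 in the opposite sense, stood at 9.71 ± 1.39 with miR-101 and 10.0 ± 3.14 in the control (log2 fold change -0.05 ± 0.218), and SH2B2 at 1.97 ± 0.865 with miR-101 and 1.69 ± 0.937 in the control (0.21 ± 0.426). Of 11 tested relatives and described partners, the receptor tyrosine kinase PDGFRA rose, with 111.9 ± 6.99 with miR-101 and 68.6 ± 12.2 in the control (0.70 ± 0.132, edgeR adjusted p = 0.0108), and CBL fell.

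Genes known to respond to STAT3 were mixed. Of 17 tested, BCL3, VEGFA and CEBPD rose and MCL1 fell, with a median of 0.11, and 8 of the 17 were called with the replicate block. CEBPD, a transcription factor induced through STAT3 that itself acts on the IL6 promoter, stood at 52.0, 57.5, 39.8 and 38.4 CPM with miR-101, against 14.1, 18.2, 8.13 and 7.50 CPM in the control (1.97 ± 0.272, edgeR adjusted p = 0.00259). The angiogenic factor VEGFA stood at 229.8 ± 23.9 with miR-101 and 121.1 ± 31.1 in the control (0.92 ± 0.178, edgeR adjusted p = 0.0123). BCL3, a nuclear partner of NF-kB, stood at 2.98 ± 1.07 with miR-101 and 1.17 ± 0.455 in the control (1.35 ± 0.344, edgeR adjusted p = 0.0420, and 0.0513 in limma-voom). The survival factor MCL1, a described miR-101 target with an 8mer, fell by 0.50 on the log2 scale (SE 0.128, edgeR adjusted p = 0.0430), with libraries of the groups overlapping. Of 6 tested STAT5 response genes SOCS2 and the cyclin CCND2 rose and none fell. CCND2 stood at 63.7 ± 4.18 with miR-101 and 26.1 ± 5.48 in the control (1.29 ± 0.143, edgeR adjusted p = 0.000976).

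The factors that act on IL6 mRNA and on its gene were mostly not called. Of 12 tested factors that bind or remove IL6 mRNA, RC3H2 fell and none rose (median -0.16). RC3H2 encodes Roquin-2, a protein that recruits decay enzymes to stem-loops in cytokine mRNAs. It stood at 66.9, 61.9, 71.9 and 61.5 CPM with miR-101, against 141, 148, 145 and 121 CPM in the control (log2 fold change -1.08 ± 0.103, edgeR adjusted p = 0.000562), with no overlap. Its longest 3′ untranslated region held 4 matches to the seed, and its 8mers are shown for comparison with those of JAK2 and SH2B3.
RC3H2 site 1, chr9:122848163-122848170, - strand: tttcaccaggtGTACTGTAtgtaagggctt
RC3H2 site 2, chr9:122847765-122847772, - strand: tcctttggttaGTACTGTAccttttttgcc

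ZC3H12A, or Regnase-1, an endonuclease that cleaves IL6 mRNA, stood at 10.7 ± 1.25 with miR-101 and 7.23 ± 2.49 in the control (log2 fold change 0.57 ± 0.228, edgeR adjusted p = 0.170). ELAVL1 was not called at -0.28 ± 0.110. Of 14 tested transcription factors that act on IL6, CEBPD was the 1 that rose and none fell without the block. With the replicate block edgeR called 5 of the 14, CEBPD among them. The others were CEBPB (adjusted p = 0.0309), NFKB2 (0.0210) and ATF4 (0.0457), each higher in 4 of 4 pairs, and FOSL1, lower in every pair. CEBPB, NFKB2 and ATF4 are named here after their values were seen. NFKBIZ, a co-activator of the IL6 gene, had a log2 fold change of 0.40 ± 0.191 (edgeR adjusted p = 0.247). FOSL1 stood at 9.80 ± 2.14 with miR-101 and 19.2 ± 8.86 in the control (-0.97 ± 0.298, edgeR adjusted p = 0.0825, and 0.0160 with the block).

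The promoter of IL6 is shown because IL6 and CEBPD were both higher. RefSeq (GRCh38.p14) gives 250 bases before to 50 after the start, and capitals mark the words found for C/EBP factors and for NF-kB.
IL6 promoter, chr7:22726950-22727249, + strand: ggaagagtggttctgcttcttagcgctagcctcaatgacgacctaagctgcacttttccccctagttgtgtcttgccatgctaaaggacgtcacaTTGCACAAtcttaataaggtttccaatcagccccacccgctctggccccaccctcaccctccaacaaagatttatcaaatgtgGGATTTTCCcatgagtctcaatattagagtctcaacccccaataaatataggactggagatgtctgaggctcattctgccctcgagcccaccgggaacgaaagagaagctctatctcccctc

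Words for C/EBP, NF-kB and STAT factors were searched on both strands in the 16 windows that RefSeq lists for 9 of the genes. The C/EBP and NF-kB words were set with the IL6 sequence in view, so their presence there is no finding. The C/EBP word TTGCNCAA begins at -155 from the IL6 start, is in no window of the other genes and is in 2.61% of all 35116 windows of this length. The NF-kB word GGNNTTTCC begins at -72 in the IL6 window, is also in 1 window of SH2B3, and is in 6.26% of all windows. The STAT word TTCNNNGAA was found in none of the 16 windows and in 7.66% of all. The SOCS3 windows span chr17 bases 78359618 to 78359917 and 78360876 to 78361175. Both miss base 78360077, where GENCODE places the start of SOCS3. The sequence around that start was therefore not searched, and nothing is said of a STAT word there. A match or its absence says nothing about binding in these cells.

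Of the 17 called pathway genes, 8 were called whichever of the 8 libraries was left out (IL11, IL6R, OSMR, PDGFRA, VEGFA, CEBPD, CCND2 and RC3H2), and CEBPD, CCND2 and RC3H2 kept it with replicates 1 and 2 summed. The other 9 lost it without at least 1 library. LIFR lost it without miR-101 replicate 1 or 2, IFNAR2 also without control replicate 1, and SOCS1 also without miR-101 replicate 3. For SOCS2 the deciding libraries were miR-101 replicate 3 and control replicates 1 and 2. For IFNGR1 and CBL they were miR-101 replicates 1, 2 and 4 and control replicates 2 and 3. PRLR and BCL3 lost it whichever library was left out, miR-101 replicate 4 excepted, and MCL1 likewise, control replicate 4 excepted. The highest edgeR adjusted p among these was 0.138 (PRLR). In replicates 3 and 4 alone CEBPD kept the call and all 17 had the same sign. OSMR, LIFR, IL6R, SOCS1, SOCS2, CBL and MCL1 overlap another measured gene, so part of their reads could come from it.

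The genes most like IL6, JAK2 and SH2B3 were taken by the root mean square difference from each, over 8 libraries of centred log2 CPM, among 11501 genes of 4 CPM or more. Nearest to IL6 were NNMT (0.334 log2 units, log2 fold change 1.87), CEBPD (0.350) and CCDC80 (0.360, log2 fold change 2.11). Nearest to JAK2 were the integrin chain ITGA4 (0.143), the glycogen phosphorylase PYGL (0.156) and NLGN1 (0.160), all about as much higher as JAK2, at log2 fold changes of 0.95 to 1.12. Nearest to SH2B3 were TMC7 (0.285), the kinase subunit PIK3CG (0.294) and GPRC5A (0.323), at log2 fold changes of -1.87 to -1.51. These are descriptions of a shared pattern that the difference between the groups dominates.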

How the data were processed

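Per the labels, ribosomal RNA was removed with Ribo-zero Gold chemistry from total RNA of 8 cultures. The authors deposited a table of raw read counts per gene. The submitters' processing notes name hg38, StringTie 1.2.4, TopHat2 2.0.14 and bcl2fastq 2.18.0.12. How reads were assigned to genes, with which annotation and strand setting, is not given in the sources used here.

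Tests across all genes used edgeR's quasi-likelihood test (edgeR 4.0.16, R 4.3.3; filterByExpr, TMM factors, glmQLFit without robust estimation, glmQLFTest, group as the 1 term, Benjamini-Hochberg adjustment over 15905 genes, called at an adjusted p under 0.05). Log2 fold changes are miR-101 over control. The script was tested on simulated data. Alternatives were upper-quartile and RLE factors, no filter, DESeq2 1.42.0, limma-voom (limma 3.58.1), the replicate number as a block, each library left out, replicates 1 and 2 alone, replicates 3 and 4 alone, and replicates 1 and 2 summed.

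The replicate numbers were taken to pair the libraries because deviations from group means correlated above 0.1 over 11502 genes in every same-numbered pair (0.438, 0.633, 0.223 and 0.212). The pairing is not specific to the number: miR-101 replicate 1 with control replicate 2 gave 0.550, miR-101 replicate 2 with control replicate 1 gave 0.511, and miR-101 replicate 4 with control replicate 3 gave 0.478. Main results are without the block. Some listed genes are not reported here. The members, gene lists, named genes (all members, a fixed set of regulators, and in each list up to 6 called genes of smallest p, or the 2 smallest p where fewer than 2 were called) and alternatives were chosen with earlier results of these data known. Of 15982 symbols, 14077 matched GENCODE 29 by name and 312 by an older name; 12476 had a 3′ untranslated region.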

Additional observations from a re-analysis of the deposited data

How the results depend on the processing

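All 10 members stayed within 1 replicate SD of their log2 fold change in all 170 alternative values, and the 6 that were called kept their direction. The count over all genes was 1053, against 1706 in DESeq2, 1676 with the replicate block, 5126 in replicates 1 and 2, 6 in replicates 3 and 4 and 173 with replicates 1 and 2 summed, and 488 to 1419 with 1 library left out. The count of 17 pathway genes was 29 with the replicate block, 52 in replicates 1 and 2, 1 in replicates 3 and 4, 3 with replicates 1 and 2 summed, and 9 (without miR-101 replicate 1 or 2) to 20 (without control replicate 4) with 1 library left out. Among the pathway genes named in the text, the block changed the calls of STAT5A and FOSL1 and, of the factors named with it, CEBPB, NFKB2 and ATF4, and no other. In limma-voom BCL3 and PRLR were no longer called (adjusted p = 0.0513 and 0.0565).

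Signs turned in uncalled genes only. SH2B1 was 0.11 in replicates 1 and 2 and -0.22 to 0.16 with 1 library left out. SH2B2 was -0.02 to 0.52 with 1 left out. CISH was -0.04 in limma-voom, -0.62 in replicates 3 and 4 and -0.04 to 0.61 with 1 left out. PTPN11 was -0.11 in replicates 3 and 4, -0.03 with replicates 1 and 2 summed and -0.09 to 0.17 with 1 left out. The cause was not tested. With the median in place of the longest transcript, IL6ST, JAK1, STAT3 and IL6 kept their rank in control cells and the other 6 changed places. With any annotated untranslated region, JAK2 and SH2B3 were again the 2 members with an 8mer. Depth limits IL6, with 13 to 50 reads in control libraries, and several listed genes of about 1 CPM or less there (SOCS1, CISH, STAT4, STAT5A and BCL3). Control and mimic libraries came from 1 line, so p-values measure the spread between these cultures.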
